A study of Mus musculus with 9 samples.

Results

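The 42 genes described here mark endothelial cells, the lining of blood and lymph vessels and of the heart chambers, and separate its kinds. They were chosen by name: every row of the deposited table whose symbol was on a list of pan-endothelial, capillary, arterial, venous, lymphatic and activation genes. That list was drawn up with earlier results of these data known. All 42 were found among 16698 genes, and all passed the filter on low values that left 13712 genes for testing. Left ventricles of ICR/CD1 mice, an outbred stock, were collected when the mice were 14 days old. Transverse aortic constriction (TAC) is an operation that ties the aorta partly shut and so raises the pressure the ventricle must work against. TAC was done on postnatal day 1 (day-1 TAC, 3 libraries) or on postnatal day 7 (day-7 TAC, 3 libraries), and 3 libraries came from sham surgery, whose day the labels leave out. The comparisons ask how the ventricular endothelial genes stand after early or later pressure load, and whether they differ with the day of surgery. The time under load differed too, since all hearts were taken at the same age.

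Endothelial cells are held together by junction proteins such as VE-cadherin (Cdh5), and their identity is kept by transcription factors of the ETS family (Erg, Fli1, Ets1) and the SOXF group (Sox7, Sox17, Sox18). In heart muscle most endothelial cells are capillary cells, which pass fatty acids from blood lipoproteins to cardiomyocytes. Arterial cells carry Notch and SOX17 activity, venous cells the nuclear receptor NR2F2, and lymphatic cells the homeobox factor PROX1. Inflamed or stressed endothelium raises adhesion molecules for leukocytes, and quiescent endothelium keeps anticoagulant proteins on its surface.

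Recovered depth was 18535202 to 20140615 reads in the day-1 TAC libraries, 19351249 to 23921181 with day-7 TAC, against 19633958 to 26521005 in sham, and every member had at least 107 reads in every library. Values are the deposited log2 values, and a fold change is the difference of their group means. Among the members, sham replicate 1 lay farthest from its group in 23 of 42 and day-1 TAC replicate 1 in 21 of 42. Day-1 TAC replicate 3 had 10532 Xist reads and 18 reads of the Y-linked Ddx3y, where the other 8 libraries had 7 to 40 and 3312 to 4706. This is a female pattern in that library and a male pattern in the other 8, so sex varied only within the day-1 TAC group. Of the members, Apln, Bmx and Tspan7 lie on the X chromosome.

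Per kilobase of the principal transcript and on the linear scale, Fabp4, a fatty acid carrier of capillary endothelium, had the highest level of the members in every group, at 1041 with day-1 TAC, 1188 with day-7 TAC and 1317 in sham. Cd34, a sialomucin of small vessels, and Cdh5 came next in every group, at 132 and 93.4 with day-1 TAC, 136 and 90.3 with day-7 TAC, and 114 and 114 in sham. Pecam1 had 76.6, 81.1 and 85.7 in that order of groups. Bmx, a kinase of arterial endothelium, was lowest, at 2.19, 1.99 and 2.47. Carbonic anhydrase 4 (Car4) ranked 12 with day-1 TAC, 8 with day-7 TAC and 6 in sham, and the arterial gene Tmem100 ranked 30, 21 and 21. Differences between neighbours in this order were not tested.

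**Figure D1:**
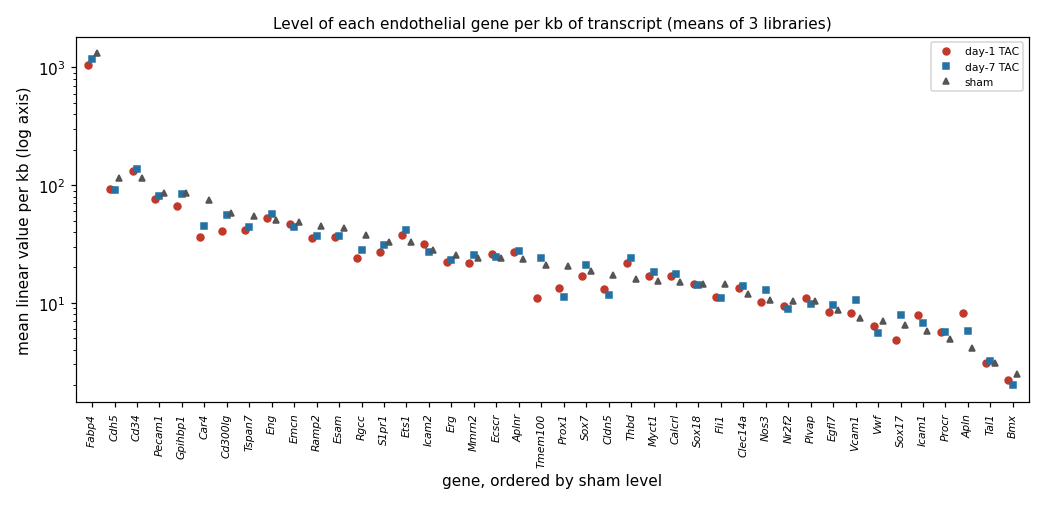
Mean linear value per kilobase of principal transcript (log axis) of each of the 42 genes, by group (3 libraries each), with genes ordered by their sham level. Fabp4 stands above all other members in every group, and Bmx is lowest.

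With day-1 TAC against sham, 3 members rose and 11 fell at an adjusted p under 0.05, which is 33.3% of members, against 34.8% of all genes tested. Called higher were 7.14% of members and 14.3% of all genes, and called lower were 26.2% and 20.5%. The median log2 fold change was -0.12 over the members and -0.04 over all genes. The day-1 TAC libraries lay wholly above sham in 9.52% of members and 20.3% of all genes, and wholly below in 28.6% and 27.7% (38.1% and 48.0% in either direction). With day-7 TAC against sham, 4 rose and 6 fell, or 23.8% of members against 28.9% of all genes, with medians of -0.03 and -0.01. Called higher were 9.52% of members and 13.8% of all genes, and called lower 14.3% and 15.1%. The day-7 TAC libraries lay wholly above sham in 16.7% of members and 22.4% of all genes, and wholly below in 19.0% and 24.3% (35.7% and 46.7% in either direction). Between day-1 and day-7 TAC, 3 members were lower and none was higher with day-1 TAC, or 7.14% of members against 16.7% of all genes, with medians of -0.06 and -0.03. Of all genes 6.42% were called higher and 10.3% lower there. The members' shares of calls lay near or below those of all genes except for calls of a fall with day-1 TAC, and the description below turns on which members were called. In all, 17 of the 42 were called in some comparison, and the matching share of all genes was not counted. Both sets of sham comparisons use the same sham libraries. In whole tissue, fewer endothelial cells and less RNA per cell cannot be told apart. Without sham replicate 1 the counts were 1 risen and 6 fallen with day-1 TAC, and 3 and 3 with day-7 TAC. In those fits 28.5% and 22.1% of all genes were called, also below the shares with every library. With day-1 TAC 2 members rose and 6 fell without sham replicate 2 (23.7% of all genes called) or day-1 TAC replicate 2 (31.3%). Without day-1 TAC replicate 1, 2 rose and 7 fell (26.5%). With day-7 TAC 2 rose and 4 fell without day-7 TAC replicate 2 (18.9%). Under quantile scaling the day-1 TAC count was 5 risen and 8 fallen, with 33.9% of all genes called, and 50.7% of the calls over all genes were higher, against 41.1% as deposited.

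**Figure D2:**
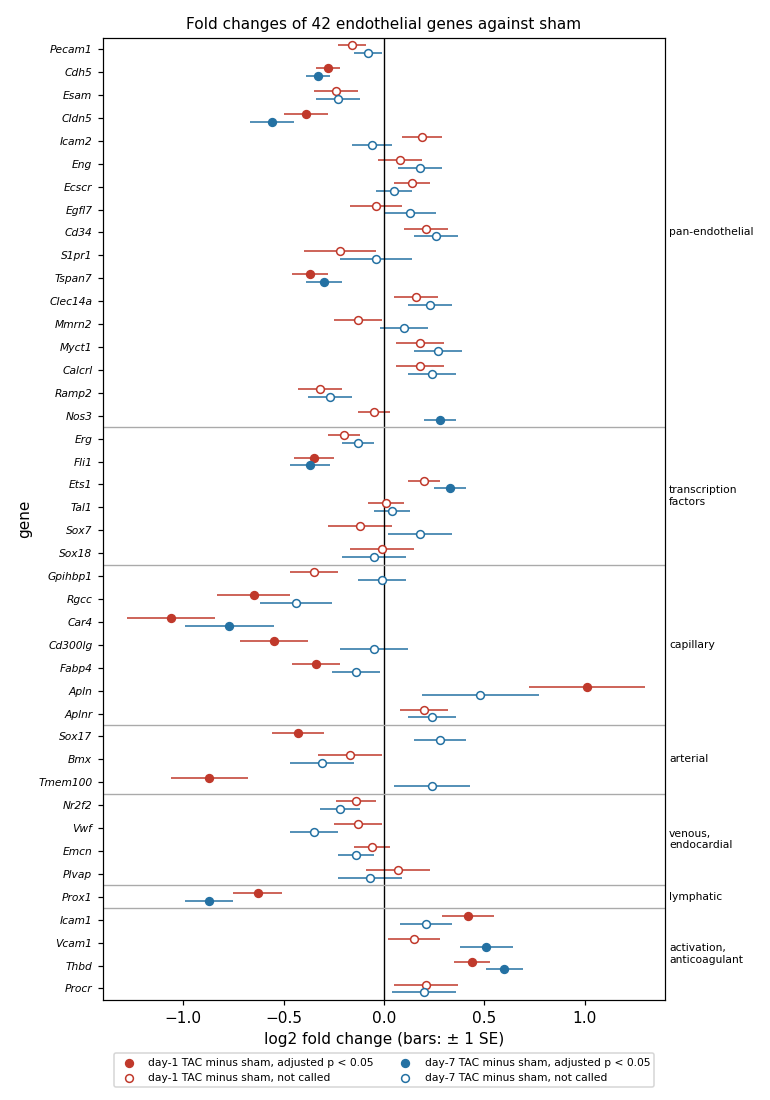
Log2 fold change against sham (horizontal axis, bars ± 1 SE) of each member with day-1 TAC and with day-7 TAC, ordered by subgroup, with filled points for an adjusted p under 0.05. Car4 and Tmem100 lie farthest to the left with day-1 TAC, and Apln lies farthest to the right.

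The pan-endothelial genes of the cell surface and junctions were 17. With day-1 TAC 3 fell and none rose, and with day-7 TAC 3 fell and 1 rose. Cdh5 (chromosome 8, 104101625 to 104144511, GRCm38) encodes VE-cadherin, the adhesion protein of endothelial junctions. It stood at 8.58, 8.56 and 8.49 with day-1 TAC, 8.41, 8.55 and 8.53 with day-7 TAC, and 8.84, 8.82 and 8.81 in sham. Every TAC library lay below every sham library, and the fall was 0.28 (SE 0.06, adjusted p = 0.00777) with day-1 TAC and 0.33 (SE 0.06, adjusted p = 0.00437) with day-7 TAC. Quantile scaling ended the day-1 TAC call (-0.17, adjusted p = 0.0618).

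Cldn5, on chromosome 16 from 18776847 to 18778262, encodes claudin-5, the tight junction protein that seals endothelial contacts. Its values were 4.29, 4.20 and 4.12 with day-1 TAC, 3.86, 4.19 and 4.07 with day-7 TAC, and 4.70, 4.68 and 4.41 in sham. Again no TAC library reached the sham range, and Cldn5 fell by 0.39 (SE 0.11, adjusted p = 0.023) and 0.56 (SE 0.11, adjusted p = 0.00578). The first of these calls was lost without sham replicate 1 or 2 or day-1 TAC replicate 2 or 3 (adjusted p up to 0.0834). Tspan7, an X-linked tetraspanin, had 6.18, 6.27 and 6.10 with day-1 TAC, 6.18, 6.27 and 6.31 with day-7 TAC, and 6.70, 6.58 and 6.38 in sham. It fell by 0.37 (SE 0.09, adjusted p = 0.00991) and 0.30 (SE 0.09, adjusted p = 0.0293). Without day-1 TAC replicate 3 the first fall was 0.33 (adjusted p = 0.0358), and the day-7 TAC call was lost in 5 of 9 fits that left out a library (adjusted p up to 0.0948).

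Pecam1, the platelet and endothelial adhesion molecule CD31 used to stain vessels, had 7.97, 7.94 and 8.01 with day-1 TAC, 8.00, 7.99 and 8.17 with day-7 TAC, and 8.22, 8.09 and 8.10 in sham. The day-1 TAC libraries lay below all sham libraries and the day-7 TAC libraries overlapped them, and neither difference passed the test (-0.16, SE 0.07, adjusted p = 0.103, and -0.08, SE 0.07, adjusted p = 0.422). Nos3 (chromosome 5, 24364810 to 24384474) encodes endothelial nitric oxide synthase, which makes the vasodilator nitric oxide. It had 5.27, 5.47 and 5.43 with day-1 TAC, 5.62, 5.79 and 5.76 with day-7 TAC, and 5.44, 5.50 and 5.39 in sham. The day-7 TAC libraries were above all others, and the day-1 TAC and sham libraries overlapped. Nos3 rose by 0.28 (SE 0.08, adjusted p = 0.0249) with day-7 TAC, differed by -0.05 (SE 0.08, adjusted p = 0.631) from sham with day-1 TAC, and was lower with day-1 TAC when the TAC groups were compared (-0.33, SE 0.08, adjusted p = 0.0195). The day-7 TAC rise was lost without day-7 TAC replicate 2 or 3 or sham replicate 1 or 3 (adjusted p up to 0.0916), and the difference between the TAC groups without day-1 TAC replicate 1 or day-7 TAC replicate 2 or 3 (up to 0.0713). On opposite strands, Nos3 shares 25.2% of its exon bases with the antisense gene Gm15587 and 7.12% with Atg9b, and the strand setting is not given in the sources used here. Gm15587 differed by 0.27 and Atg9b by 0.33 between day-7 TAC and sham (adjusted p = 0.365 and 0.387).

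Pecam1 and 12 others made up the 13 pan-endothelial members that were not called in any comparison. Against sham their fold changes ran from -0.32 for Ramp2 to 0.21 for Cd34 with day-1 TAC, and from -0.27 for Ramp2 to 0.27 for Myct1 with day-7 TAC. Calcrl and Ramp2 form the receptor for adrenomedullin, a peptide that keeps vessels tight. Calcrl stood at 0.18 and 0.24 and Ramp2 at -0.32 (adjusted p = 0.051) and -0.27 (adjusted p = 0.101) against sham, with day-1 TAC given first. Ramp2 shares 33.4% of its exon bases with Vps25 on the same strand. S1pr1, the sphingosine-1-phosphate receptor of endothelium, showed the widest spread of these genes in sham, with 7.12 in replicate 1 against 6.46 and 6.23. Its TAC libraries lay between 6.33 and 6.61. Esam, Icam2, Eng, Ecscr, Egfl7, Clec14a, Mmrn2 and Myct1 all lay within 0.27 of sham in both TAC groups. Egfl7 shares 7.37% of its exon bases with Gm20532 on the same strand. Gm20532 differed from sham by -0.15 (adjusted p = 0.521) with day-1 TAC and by -0.83 (adjusted p = 0.00522) with day-7 TAC. The part of this overlap in the Egfl7 values was not tested.

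**Figure D3:**
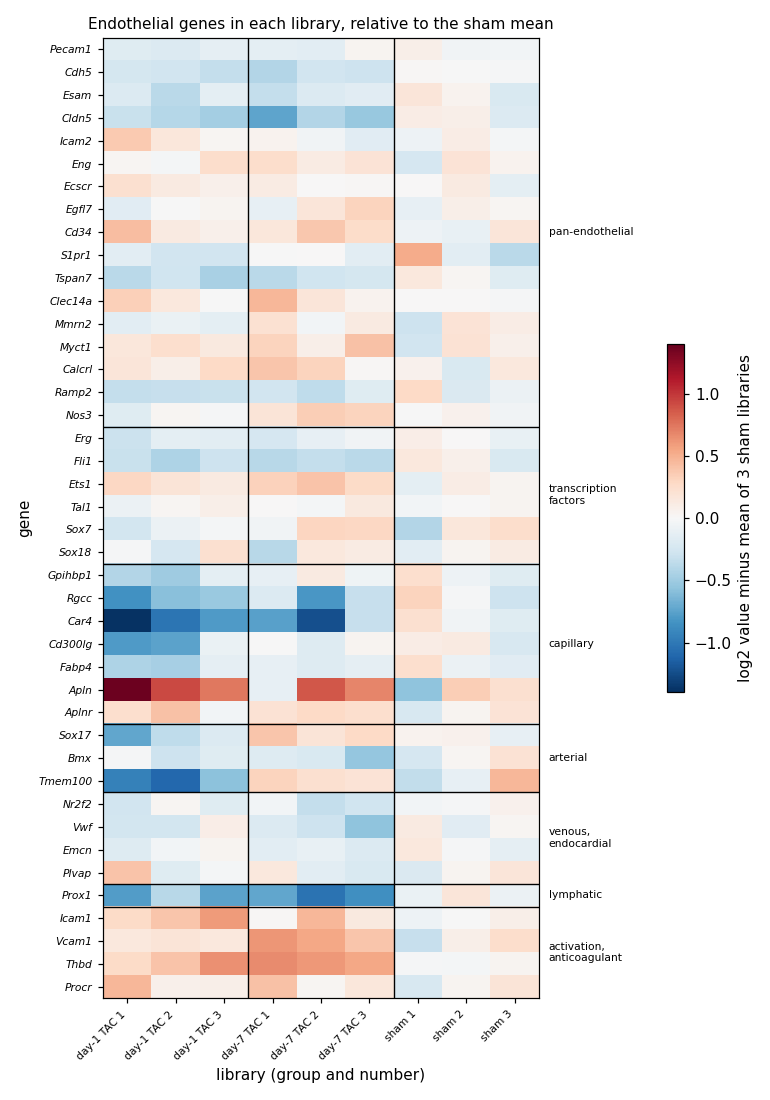
Log2 value of each member (rows, ordered by subgroup) in each of the 9 libraries (columns) minus the mean of the 3 sham libraries. Cdh5, Cldn5, Tspan7, Fli1, Rgcc, Car4 and Prox1 are among the rows that are blue in all 6 TAC libraries, and Tmem100 and Sox17 are blue with day-1 TAC and red with day-7 TAC.

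Of the 6 endothelial transcription factor genes outside the arterial group, Fli1 fell in both TAC groups and Ets1 rose with day-7 TAC. Fli1, an ETS factor of endothelial and blood cells on chromosome 9 (32422204 to 32542861), had 5.25, 5.13 and 5.27 with day-1 TAC, 5.17, 5.23 and 5.19 with day-7 TAC, and 5.71, 5.63 and 5.35 in sham. The TAC libraries lay below all sham libraries, and Fli1 fell by 0.35 (SE 0.10, adjusted p = 0.0172) and 0.37 (SE 0.10, adjusted p = 0.0157). Both calls were lost without sham replicate 1 or 2, and the first also without day-1 TAC replicate 2 (adjusted p up to 0.0649). Ets1 lies on the same chromosome (32636221 to 32757820) and is active in sprouting vessels and lymphocytes. Its values were 7.67, 7.56 and 7.50 with day-1 TAC, 7.70, 7.78 and 7.65 with day-7 TAC, and 7.24, 7.48 and 7.41 in sham. Every TAC library lay above every sham library. The rise passed the test with day-7 TAC (0.33, SE 0.08, adjusted p = 0.0117) and not with day-1 TAC (0.20, SE 0.08, adjusted p = 0.0748), and the TAC groups did not differ by the test (-0.13, SE 0.08, adjusted p = 0.277). The others were not called: Erg differed from sham by -0.20 and -0.13, and Tal1, Sox7 and Sox18 by -0.12 to 0.18.

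Among the capillary genes, 4 of 7 fell and 1 rose with day-1 TAC, and 1 of 7 fell with day-7 TAC. The largest fall of any member was in Car4 (chromosome 11, 84957786 to 84966044), a membrane carbonic anhydrase that speeds carbon dioxide exchange at the capillary wall. Car4 had 5.16, 5.52 and 5.75 with day-1 TAC, 5.78, 5.31 and 6.22 with day-7 TAC, and 6.77, 6.49 and 6.37 in sham. No TAC library reached the sham range, although day-7 TAC replicate 3 came close to it. The fall was 1.06 with day-1 TAC (SE 0.22, adjusted p = 0.00428), or 0.478 times the sham level, and 0.77 with day-7 TAC (SE 0.22, adjusted p = 0.0228). The day-7 TAC call was lost without day-7 TAC replicate 1 or 2 or sham replicate 1 or 2 (adjusted p up to 0.0797).

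Rgcc, a cell cycle regulator found in capillary endothelium, had 4.26, 4.52 and 4.58 with day-1 TAC, 4.91, 4.29 and 4.78 with day-7 TAC, and 5.41, 5.09 and 4.81 in sham. With day-1 TAC it lay below all sham libraries and fell by 0.65 (SE 0.18, adjusted p = 0.0203), while day-7 TAC overlapped sham (-0.44, SE 0.18, adjusted p = 0.0972). Cd300lg, a surface glycoprotein of capillary endothelium, had 6.30, 6.35 and 7.00 with day-1 TAC, 7.09, 6.92 and 7.13 with day-7 TAC, and 7.20, 7.22 and 6.87 in sham. The day-1 TAC libraries split: replicates 1 and 2 were low and replicate 3 lay within the sham range. Cd300lg fell by 0.55 (SE 0.17, adjusted p = 0.03) with day-1 TAC, by 0.77 without replicate 3, and was at -0.05 (SE 0.17, adjusted p = 0.849) with day-7 TAC. Rgcc lost its call without day-1 TAC replicate 1 or sham replicate 1 or 2 (adjusted p up to 0.0724), and Cd300lg without day-1 TAC replicate 1 or 2 or sham replicate 1 or 2 (up to 0.103).

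Fabp4 had 9.77, 9.73 and 10.07 with day-1 TAC, 10.08, 10.02 and 10.07 with day-7 TAC, and 10.43, 10.12 and 10.04 in sham. The fall with day-1 TAC was 0.34 (SE 0.12, adjusted p = 0.049), at the edge of the threshold, with replicate 3 inside the sham range. It was lost in 7 of 9 fits that left out a library (-0.45 to -0.22, adjusted p up to 0.154) and in 8 of 10 other alternatives. Fabp4 is also a fat cell gene. None of the 5 adipocyte markers, which include Adipoq and Plin1, passed the filter, and their summed linear level was 0.333 to 0.787 with day-1 TAC, 0.334 to 0.416 with day-7 TAC, against 0.349 to 0.781 in sham. The part of fat cells in the Fabp4 values was not tested. Gpihbp1, which anchors lipoprotein lipase to the capillary wall, had 5.72, 5.63 and 5.99 with day-1 TAC, 6.02, 6.26 and 6.07 with day-7 TAC, and 6.37, 6.06 and 5.96 in sham. It stood at -0.35 (SE 0.12, adjusted p = 0.0535) with day-1 TAC and -0.01 (SE 0.12, adjusted p = 0.961) with day-7 TAC. In all 5 capillary genes that were below sham with day-1 TAC, replicate 3 was the highest day-1 TAC library. It is also the library with the female pattern, and the part of sex in these values was not tested.

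The capillary gene that rose was Apln (chromosome X, 48025146 to 48034853), which encodes apelin, a peptide made by sprouting tip cells that acts on the receptor APLNR. Apln had 5.01, 4.56 and 4.38 with day-1 TAC, 3.52, 4.51 and 4.32 with day-7 TAC, and 3.07, 3.98 and 3.86 in sham. All day-1 TAC libraries were above sham, while day-7 TAC replicate 1 lay inside the sham range. The rise with day-1 TAC was 1.01 (SE 0.29, adjusted p = 0.0224), or 2.02-fold, and it became 0.73 (adjusted p = 0.0771) without sham replicate 1 and 0.83 (adjusted p = 0.0783) without day-1 TAC replicate 1. Without day-1 TAC replicate 3 it was 1.15 (adjusted p = 0.0286). With day-7 TAC the difference was 0.48 (SE 0.29, adjusted p = 0.244). The receptor gene Aplnr stood at 0.20 and 0.24 against sham (adjusted p = 0.235 and 0.167).

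Promoter windows of 250 bases before the start were listed for 19 of the 42 members (RefSeq, GRCm38.p6). ETS factors such as those encoded by Erg, Fli1 and Ets1 bind a GGAA core, so the windows were searched on both strands for AGGAAG and CGGAAG, which differ in their first base. AGGAAG was found in 8 of the 19 member windows (42.1%) and in 29.2% of 27025 windows, with the first listed window taken for each symbol. CGGAAG was found in 2 of the 19 (10.5%) and in 13.8% of windows. The windows of Car4, Rgcc and Apln are shown since these capillary genes had the largest day-1 TAC changes of those listed and moved in opposite directions. Capitals mark the ETS words, which read CTTCCG or CTTCCT where they lie on the other strand. Car4 is from chr11:84957504-84957753 (+), Rgcc from chr14:79301636-79301885 (-) and Apln from chrX:48034854-48035103 (-). The first bases after the window were found in a GENCODE transcript of the gene for Rgcc and Apln. For Car4 they were not, so its start is less certain.
Car4: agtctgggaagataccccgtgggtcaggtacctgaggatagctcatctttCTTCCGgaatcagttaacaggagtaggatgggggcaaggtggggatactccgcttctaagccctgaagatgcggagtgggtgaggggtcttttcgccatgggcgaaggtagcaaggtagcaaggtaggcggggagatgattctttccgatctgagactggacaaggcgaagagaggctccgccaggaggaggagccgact
Rgcc: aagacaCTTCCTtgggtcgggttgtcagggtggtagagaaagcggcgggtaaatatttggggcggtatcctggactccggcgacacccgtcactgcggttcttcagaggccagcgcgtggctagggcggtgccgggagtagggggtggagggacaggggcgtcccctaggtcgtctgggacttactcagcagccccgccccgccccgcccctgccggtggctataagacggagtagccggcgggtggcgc
Apln: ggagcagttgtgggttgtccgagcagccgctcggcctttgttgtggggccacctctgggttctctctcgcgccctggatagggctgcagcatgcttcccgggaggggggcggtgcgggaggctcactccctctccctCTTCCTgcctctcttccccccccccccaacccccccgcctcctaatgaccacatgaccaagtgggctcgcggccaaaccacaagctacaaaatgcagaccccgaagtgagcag
Each window held 1 such word, in the falling genes as in the rising one, and a word of these letters is a description of the sequence, not a binding site.

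Of the 3 arterial members, Tmem100 and Sox17 were lower with day-1 TAC in the comparison of the TAC groups, and Bmx was not called (0.15, SE 0.16, adjusted p = 0.557). Tmem100 (chromosome 11, 90030348 to 90036508) encodes a membrane protein of arterial endothelium that is induced by BMP9 and BMP10 through the receptor ALK1. It had 4.21, 4.06 and 4.58 with day-1 TAC, 5.47, 5.38 and 5.35 with day-7 TAC, and 4.81, 5.04 and 5.62 in sham. The day-1 TAC libraries were below all 6 others, and the day-7 TAC libraries lay inside the wide sham range. Tmem100 fell by 0.87 (SE 0.19, adjusted p = 0.00614) with day-1 TAC against sham, and it was lower by 1.12 than with day-7 TAC (-1.12, SE 0.19, adjusted p = 0.00518), or 0.46 times that level. Against sham, day-7 TAC stood at 0.24 (SE 0.19, adjusted p = 0.364).

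Sox17, on chromosome 1 from 4490931 to 4497354, is the SOXF gene of arterial endothelium. It had 3.60, 3.97 and 4.14 with day-1 TAC, 4.72, 4.51 and 4.61 with day-7 TAC, and 4.38, 4.39 and 4.21 in sham. All day-1 TAC libraries lay below the sham range and all day-7 TAC libraries above it. Between the TAC groups Sox17 was lower after the day-1 operation (-0.71, SE 0.13, adjusted p = 0.00779). Against sham it fell by 0.43 (SE 0.13, adjusted p = 0.0323) with day-1 TAC and differed by 0.28 (SE 0.13, adjusted p = 0.139) with day-7 TAC. The fall against sham was lost without day-1 TAC replicate 1 or 2 or sham replicate 1 or 2 (-0.55 to -0.27, adjusted p up to 0.0981). On opposite strands, Sox17 shares 16.85% of its exon bases with Gm37587, which has no values here. Sox7 and Sox18, the other SOXF genes, differed between the TAC groups by -0.30 (SE 0.16, adjusted p = 0.225) and 0.03 (SE 0.16, adjusted p = 0.907). Bmx, the third arterial member, was not called, at -0.17 and -0.31 against sham.

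Nos3, Sox17 and Tmem100 were the members called between the TAC groups, and each was lower with day-1 TAC. In 7 members the day-1 TAC libraries lay wholly below the day-7 TAC libraries, and in none wholly above, which is 16.7% of members without overlap against 38.9% of all genes (15.6% wholly above and 23.3% wholly below). The 4 of these that did not pass the test were S1pr1, Mmrn2, Gpihbp1 and Vcam1, at -0.18, -0.23, -0.34 and -0.36. The arterial members' summed linear level was 37.8 to 48.1 with day-1 TAC, 70.4 to 77.1 with day-7 TAC, against 55.2 to 76.3 in sham. The 9 further arterial genes that are not members, among them Gja4, Efnb2 and Dll4, had none called between the TAC groups and a summed level of 280 to 317, 261 to 300 and 261 to 297 in that order of groups. Among them Unc5b rose by 0.96 (adjusted p = 0.00653) and Sema3g fell by 0.47 (adjusted p = 0.00989) with day-1 TAC, and the connexin gene Gja5 fell by 0.63 (adjusted p = 0.0311) with day-7 TAC. Of 10 pericyte and smooth muscle markers, 2 rose and 3 fell with day-1 TAC, and 2 rose and none fell with day-7 TAC. Their median log2 fold changes were 0.17 and 0.10, and with day-1 TAC 7 of the 10 stood above sham. Their summed linear levels, in which the most abundant markers weigh most, were 1674 to 2047 with day-1 TAC, 2285 to 2404 with day-7 TAC, against 2332 to 2517 in sham. The part of these markers in the arterial values was not tested.

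**Figure D4:**
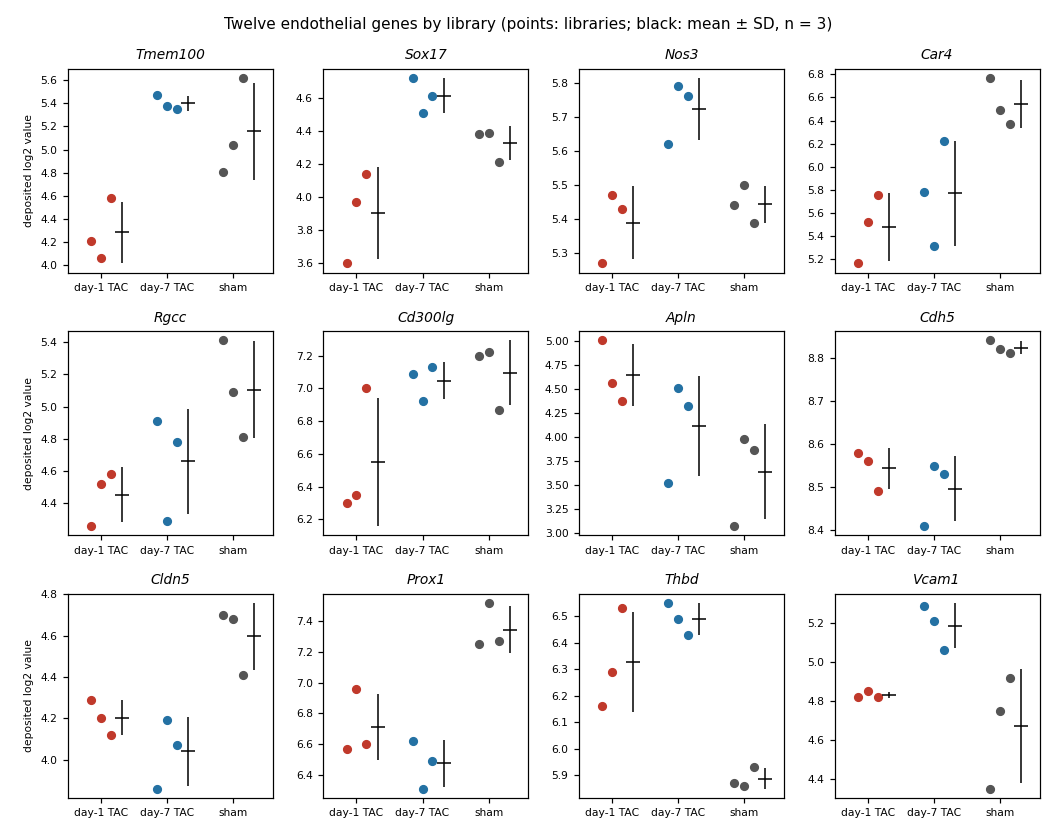
Deposited log2 values of 12 members in each library (coloured points), with group mean ± SD in black (n = 3). Tmem100 and Sox17 are lowest with day-1 TAC, Nos3 and Vcam1 are highest with day-7 TAC, and Car4, Cdh5, Cldn5 and Prox1 are below sham in all 6 TAC libraries.

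None of the 4 venous, endocardial and large-vessel genes was called in any comparison. Vwf encodes von Willebrand factor, the platelet-tethering protein stored in endothelial granules. It had 5.69, 5.69 and 6.04 with day-1 TAC, 5.75, 5.65 and 5.38 with day-7 TAC, and 6.07, 5.79 and 5.97 in sham. With day-7 TAC it lay below all sham libraries without passing the test (-0.35, SE 0.12, adjusted p = 0.0599), and with day-1 TAC it stood at -0.13 (SE 0.12, adjusted p = 0.442). Nr2f2, the venous identity factor COUP-TFII, differed by -0.14 and -0.22, the sialomucin gene Emcn by -0.06 and -0.14, and Plvap, which forms the diaphragms of fenestrated endothelium, by 0.07 and -0.07. Of 5 further endocardial genes, Npr3 fell by 0.82 and 1.08 (adjusted p = 0.00407 and 0.00132) and Cytl1 by 1.18 and 1.16 (adjusted p = 0.00247 and 0.0034), while Cdh11 rose with day-1 TAC.

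Prox1 (chromosome 1, 190118035 to 190170714) specifies lymphatic endothelium and is also expressed by cardiomyocytes. Its values were 6.57, 6.96 and 6.60 with day-1 TAC, 6.62, 6.31 and 6.49 with day-7 TAC, and 7.25, 7.52 and 7.27 in sham. All TAC libraries lay below sham. Prox1 fell by 0.63 (SE 0.12, adjusted p = 0.00339) with day-1 TAC, or 0.644 times the sham level, and by 0.87 (SE 0.12, adjusted p = 0.000888) with day-7 TAC, or 0.546 times. The TAC groups did not differ by the test (0.24, SE 0.12, adjusted p = 0.204). Of 6 further lymphatic genes tested, Reln fell by 1.08 and 1.19 (adjusted p = 0.00101 and 0.000751) and Mmrn1 by 1.19 with day-7 TAC (adjusted p = 0.00563), Flt4 rose by 0.44 with day-1 TAC (adjusted p = 0.00566), and Lyve1 and Pdpn were not called. Of 10 cardiomyocyte markers 1 rose and 2 fell with day-1 TAC and 2 fell with day-7 TAC. Their summed linear level was 83909 to 108070 with day-1 TAC, 98937 to 106637 with day-7 TAC, against 119070 to 130773 in sham. Myh6, the most abundant of them, weighs most in that sum and was not called (-0.49 and -0.35, adjusted p = 0.117 and 0.273). The part of cardiomyocyte RNA in the Prox1 values was not tested.

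Of the activation and anticoagulant genes, 2 of 4 rose in each TAC group and none fell. Thbd (chromosome 2, 148404466 to 148408188) encodes thrombomodulin, the endothelial receptor that turns thrombin into an activator of protein C. It had 6.16, 6.29 and 6.53 with day-1 TAC, 6.55, 6.49 and 6.43 with day-7 TAC, and 5.87, 5.86 and 5.93 in sham. All TAC libraries were above sham, and Thbd rose by 0.44 (SE 0.09, adjusted p = 0.00495) with day-1 TAC and by 0.60 (SE 0.09, adjusted p = 0.00129) with day-7 TAC. Its partner Procr, the endothelial protein C receptor, stood at 0.21 and 0.20 (adjusted p = 0.34 and 0.378).

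The leukocyte adhesion genes Icam1 and Vcam1 were called in different groups. Icam1 had 4.15, 4.27 and 4.48 with day-1 TAC, 3.90, 4.35 and 4.02 with day-7 TAC, and 3.81, 3.87 and 3.96 in sham. It rose by 0.42 (SE 0.13, adjusted p = 0.0299) with day-1 TAC and stood at 0.21 (SE 0.13, adjusted p = 0.259) with day-7 TAC, where replicate 1 overlapped sham. Vcam1 had 4.82, 4.85 and 4.82 with day-1 TAC, 5.29, 5.21 and 5.06 with day-7 TAC, and 4.35, 4.75 and 4.92 in sham. It rose by 0.51 (SE 0.13, adjusted p = 0.0154) with day-7 TAC and stood at 0.15 (SE 0.13, adjusted p = 0.392) with day-1 TAC. The direct differences between the TAC groups did not pass the test (Icam1 0.21, adjusted p = 0.283, and Vcam1 -0.36, adjusted p = 0.0843). The Icam1 call was lost without day-1 TAC replicate 2 or 3 or sham replicate 1 or 2 (adjusted p up to 0.101), and the Vcam1 call without day-7 TAC replicate 1 or 2 (up to 0.0546). On opposite strands, Icam1 shares 11.72% of its exon bases with the antisense gene Gm47079, which has no values here. Of 7 further activation genes 4 rose with day-1 TAC and 3 with day-7 TAC, among them the tissue plasminogen activator gene Plat (0.55 and 0.64, adjusted p = 0.000943 and 0.000543), the E-selectin gene Sele (1.48 and 1.66, adjusted p = 0.00475 and 0.00336) and the chemokine gene Ccl2 (1.89 and 1.56, adjusted p = 0.00878 and 0.0249). In sham the mean log2 values of Sele and Ccl2 were -0.25 (SD 0.28) and 0.10 (SD 1.09), near the filter value of 0. The sham libraries alone could not have passed Sele or Ccl2 through the filter. Both were tested only because TAC libraries lay above it, and their folds are given as a description. Vcam1 is also expressed by mural cells and fibroblasts, and the summed level of 9 fibroblast markers was 5149 to 6191 with day-1 TAC, 4535 to 5221 with day-7 TAC, against 3903 to 5081 in sham. That of 9 macrophage markers was 166 to 237, 121 to 160 and 146 to 191 in the same order. Their part in the activation values was not tested.

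In human cells the ICAM1 promoter is known for a site of the inflammatory factor NF-kappaB close to the start, and its window is shown for that reason (chr9:21015690-21015939, + strand, with GGAANTTCC in capitals, a motif that reads the same on both strands). The first bases after this window were not found in a GENCODE transcript of Icam1, so its start is less certain.
Icam1: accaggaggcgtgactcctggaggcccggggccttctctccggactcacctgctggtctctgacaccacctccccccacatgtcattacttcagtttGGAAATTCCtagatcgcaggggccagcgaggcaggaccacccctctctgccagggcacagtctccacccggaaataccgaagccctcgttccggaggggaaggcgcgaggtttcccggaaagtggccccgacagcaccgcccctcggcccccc
GGAANTTCC was found in this member window alone of 19 (5.26%), and in 0.844% of all windows.

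Further lists of the same kinds are described next. They were chosen with earlier results of these data known, so they are no independent check of the member subgroups. Of 20 pan-endothelial genes tested that are not members, 1 rose and 4 fell with day-1 TAC, and 4 rose and 1 fell with day-7 TAC. Between the TAC groups none was higher and 3 were lower with day-1 TAC, namely Ptprb (-0.42, adjusted p = 0.00894), Adgrf5 (-0.58, adjusted p = 0.0132) and Cyyr1 (-0.33, adjusted p = 0.0431). With day-1 TAC against sham the smallest p values were those of Ptprb (-0.40), Adgrf5 (-0.57) and Tek (-0.35), and with day-7 TAC those of Acvrl1 (0.47), Podxl (0.46) and Heg1 (0.58). Of 6 further capillary genes 4 fell in each TAC group and 1 rose with day-1 TAC, with the water channel gene Aqp1 at -1.28 and -0.80, Cd36 at -0.72 and -0.50 and the homeobox gene Meox2 at -0.50 and -0.41. Cd36 and Lpl on this list are cardiomyocyte genes too. Relative to the mean of the pan-endothelial genes that are not members, 3 members rose and 5 fell with day-1 TAC, 2 rose and 5 fell with day-7 TAC, and 2 were lower between the TAC groups. Over all genes the shares called on that scale were 27.0%, 22.3% and 11.0%, also below those as deposited. On that scale 6 members lost their day-1 TAC calls with folds of the same sign: Cdh5 stood at -0.21 (adjusted p = 0.137), Cldn5 at -0.32 (0.102), Tspan7 at -0.29 (0.0747), Fli1 at -0.28 (0.0866), Fabp4 at -0.26 (0.125) and Sox17 at -0.35 (0.0516). With day-7 TAC the lost calls were Tspan7 at -0.33 (adjusted p = 0.0586), Nos3 at 0.25 (0.0655) and Ets1 at 0.30 (0.0589). The SE of Cdh5 was 0.10 on that scale, against 0.06 as deposited. Between the TAC groups Nos3 lost its call (-0.23, adjusted p = 0.122), while Sox17 and Tmem100 kept theirs.

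**Figure D5:**
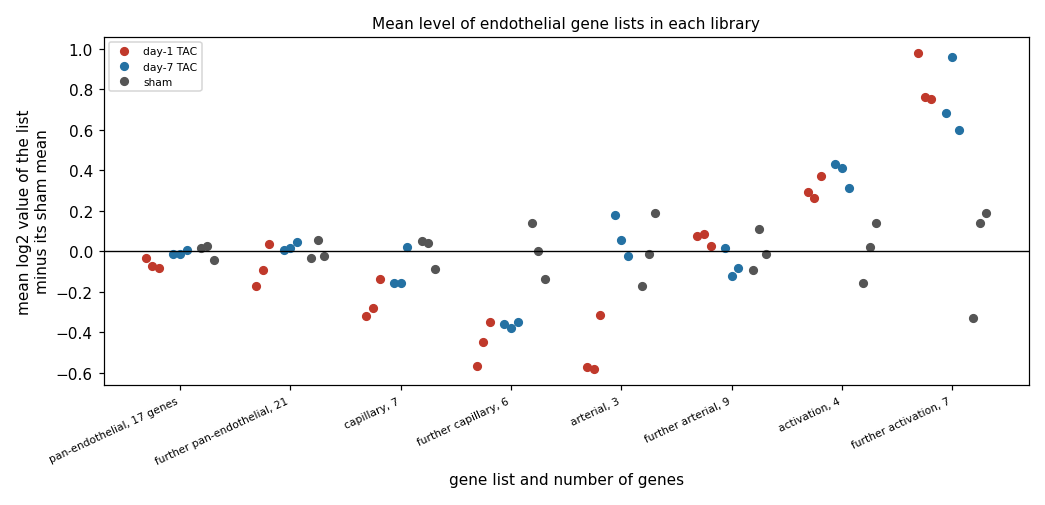
Mean log2 value of each list in each library minus its sham mean, for member lists and for further lists of the same kind. The 17 pan-endothelial members lie near 0 in all libraries, and the 3 arterial members are low with day-1 TAC. The list means of the 4 activation and anticoagulant members (labelled activation) and of the 7 further activation genes are above sham in all TAC libraries. Single genes on these lists overlapped sham, and Thbd and Procr on the first list are anticoagulant genes.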

How the data were processed

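The deposited table gives log2 values that the file header labels as TMM, with 1 row per gene symbol and 1 column per library. The median log2 value was 3.75542 in day-1 TAC replicate 3 and 3.75265 in each other library. TMM scaling does not set medians equal, so which scaling was applied is uncertain. The submitters' processing notes name Trim Galore, STAR, edgeR and mm10. Which versions, annotation, strand setting and multimapper handling were used is not given in the sources used here. Polyadenylated RNA was selected and libraries were prepared with ScriptSeq v2 for single-end sequencing of 50 cycles, per the labels' protocols. On the linear scale 100% of values in each library were whole multiples, within 0.001, of that library's lowest value, which was taken as 1 read. If the authors added 1 to each count, the recovered reads are 1 too high per gene.

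Of 16710 table rows, 12 were left out because their 3 symbols each occurred on 4 rows. Tested genes had log2 values above 0 in 3 or more libraries (13712). All 9 libraries entered 1 linear model in limma 3.58.1 (R 4.3.3) with an intensity trend, two-sided, with Benjamini-Hochberg adjustment over the tested genes, and calls are at an adjusted p under 0.05. The script was tested on simulated data. No libraries of a group agreed within sampling noise (chi-square per gene at least 8.703). Nothing in the labels ties a library to its own animal, and the p-values therefore reflect only how these libraries vary, which may be technical. By its Xist and Ddx3y reads, day-1 TAC replicate 3 did not come from the same animal as replicates 1 and 2. Since 2 sham columns carry the same name in the header, sham replicates 2 and 3 are numbered by column order. Gene coordinates and transcript lengths come from GENCODE mouse release 21 (GRCm38, to which mm10 corresponds) and promoters from RefSeq (GRCm38.p6).

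The members, subgroups and further lists were chosen with earlier results of these data known. By rule, members called in any comparison and Pecam1, Cdh5, Nos3, Apln, Vwf, Prox1 and Vcam1 are given with every library, other members by range and count, and at most 3 called genes with the smallest p from each further list. Gpihbp1, S1pr1, Calcrl, Ramp2, Aplnr, Lyve1, Pdpn, Lpl and other genes named beyond the rule were chosen after their values were seen. Alternatives changed the filter, pseudocount, trend, scaling, and the libraries and groups in the fit.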

Additional observations from a re-analysis of the deposited data

Results flagged for a closer look

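The difference between day-1 and day-7 TAC, which equals the difference between their effects against the shared sham libraries, passed the limma test in 3 members. Tmem100 stood at -1.12 on the log2 scale (day-1 minus day-7 TAC, adjusted p = 0.00518), and all 3 day-1 TAC libraries lay below every day-7 TAC library. Sox17 stood at -0.71 (adjusted p = 0.00779) with the same separation, and its day-1 TAC libraries lay below sham while its day-7 TAC libraries lay above. Nos3 stood at -0.33 (adjusted p = 0.0195), with the 3 day-7 TAC libraries above all others. All groups held 3 libraries, so no test for a single outlying library was made.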

How the results depend on the processing

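With day-1 TAC against sham 14 members were called, 8 relative to the endothelial baseline and 7 to 16 without a single library (7 without sham replicate 1, 8 without sham replicate 2 or day-1 TAC replicate 2, 9 without day-1 TAC replicate 1). With day-7 TAC the count was 10, and 6 to 13 without a library (6 without sham replicate 1 or day-7 TAC replicate 2). Between the TAC groups it was 3, and 2 to 4 without a library. Over all genes 34.8%, 28.9% and 16.7% were called in these comparisons. Without a library those shares were 23.7% to 33.1%, 18.9% to 32.2% and 9.21% to 18.3%. All other alternatives stayed within 1.5 times the member counts with every library, namely no filter, a filter above 2, a pseudocount of 1, no trend, quantile, trimmed-mean and median-of-ratios scaling, and only the groups compared. So did voom on recovered reads, added after the data were seen, which called 14, 10 and 3. In every fit that left out a library and every other alternative run, calls were kept by Car4, Tmem100, Prox1 and Thbd with day-1 TAC, by Cdh5, Cldn5, Prox1 and Thbd with day-7 TAC, and by Sox17 and Tmem100 between the TAC groups. Of 769 alternative values for 40 gene results, 685 kept direction and call, 74 lost the call, 4 gained it and 6 changed sign. The sign changes were in uncalled values: Nos3 with day-1 TAC against sham (0.02 under quantile scaling and on the endothelial baseline, and -0.09 to 0.01 without a library, positive without day-1 TAC replicate 1), Pecam1 between the TAC groups (0.02 under quantile scaling and on the baseline) and Vcam1 with day-1 TAC against sham (-0.01 to 0.28 without a library, negative without sham replicate 1).

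Of the calls over all genes, 41.1% were higher with day-1 TAC than in sham as deposited. That share was 48.5% under trimmed-mean scaling of recovered reads and 53.6% on the endothelial baseline. Between the TAC groups 38.5% were higher with day-1 TAC as deposited, 48.5% under quantile scaling and 65.4% on the baseline. No paired analysis was possible against sham because 2 sham columns share a name. Same-numbered TAC libraries did not deviate together (correlations of -0.224, -0.110 and -0.0365 across genes), and with the replicate number as a block 3 members were called between the TAC groups, as without it. The 2 planned count-model tests were not run, since the deposited values are log2 values. Every member had at least 107 reads in each library, and each group held 3 libraries. How depth and the number of libraries each limit the calls was not compared.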
